A study of Mus musculus with 8 samples.

Results

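This section describes the cell junction and adhesion genes Dsg2, Fat1, Cdh1, Ctnnb1, Jup, Pkp4, Dsp, Ctnna1 and Alcam in aged CD8 memory T cells. All probe sets that the platform annotation assigns to these 9 genes alone were taken, which gave 26 of the 45101 on the array. Dsg2 and Fat1 were chosen by their measured difference between expansions and polyclonal cells in an earlier reading of the same arrays, and the other genes were added around them. Their values in that comparison are therefore given as a description, with no test. Of the 26 probe sets, 18 were bright enough on average over all arrays to be tested, covering 8 of the 9 genes. The 8 that were not tested are the single Jup probe set and dim probe sets of Dsg2, Dsp, Ctnna1 and Alcam.

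The arrays compared an age-associated clonal expansion, a population of CD8 T cells carrying 1 T cell receptor V beta chain in common, with polyclonal CD8 memory cells lacking that chain from the same animal. There were 4 female mice and 8 arrays. Mice 1 and 2 were C57BL/10SnJ aged 20 months, mouse 3 was C57BL/10SnJ aged 23 months, and mouse 4 was B10.BR aged 23 months. No animal was treated, and every sample was sorted from spleen and lymph nodes as CD8+ CD122+ MHC II- cells. The V beta chains were Vb3, Vb8.1/8.2, Vb8.3 and Vb14 for mice 1 to 4. By the labels, expansion 1 is integrin alpha4-high and expansions 2, 3 and 4 are alpha4-low, so the alpha4-high type rests on 1 clone. A pair here means the expansion and the polyclonal sample of 1 mouse. Labelled sort purity was 91 to 98% in the expansions, 97% in polyclonal samples 1 and 4, 75% in polyclonal sample 2 and 66% in polyclonal sample 3. The CD8 T cell markers Cd3d, Cd3e, Cd3g, Cd8a, Cd8b1 and Il2rb were above background on all 8 arrays. Background, the upper range of control probe sets for bacterial genes, lay between 33.7 and 61.9 per array. The scanner's record differs for the array of expansion 4, and whether a value particular to that array goes with the scan or with the sample cannot be told apart. The number of arrays limits the precision.

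Cadherins are calcium-dependent adhesion proteins whose cytoplasmic tails bind armadillo-repeat proteins. In adherens junctions a classical cadherin such as E-cadherin binds beta-catenin, which binds alpha-catenin and through it actin. In desmosomes, the desmogleins and desmocollins bind plakoglobin and plakophilins, which bind desmoplakin and through it intermediate filaments. These junctions are best known from epithelia and heart muscle. Beta-catenin also acts in the nucleus with the transcription factors Tcf1 and Lef1, which T cells use in development and memory. Lymphocytes meet E-cadherin on other cells through the receptors KLRG1 and integrin alphaE beta7, and ALCAM through CD6.

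Promoter sequences are shown for Alcam and Pkp4, members whose signal in the alpha4-high expansion lay on opposite sides of its partner. RefSeq promoters (GRCm38.p6) matched 6 of the 9 members. The 250 bases before the annotated start are given 5′ to 3′, and capitals mark an E-box of the letters CAGGTG or, read on the other strand, CACCTG, the element bound by E proteins and the Zeb and Snail families. The Alcam window is chr16:52453082-52453331 on the minus strand and the Pkp4 window, before the first of its 2 listed starts, is chr2:59160600-59160849 on the plus strand.
Alcam: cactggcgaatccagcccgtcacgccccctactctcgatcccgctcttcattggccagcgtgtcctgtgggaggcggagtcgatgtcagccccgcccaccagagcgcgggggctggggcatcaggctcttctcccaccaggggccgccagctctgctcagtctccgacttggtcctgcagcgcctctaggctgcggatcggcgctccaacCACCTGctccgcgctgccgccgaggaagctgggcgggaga
Pkp4: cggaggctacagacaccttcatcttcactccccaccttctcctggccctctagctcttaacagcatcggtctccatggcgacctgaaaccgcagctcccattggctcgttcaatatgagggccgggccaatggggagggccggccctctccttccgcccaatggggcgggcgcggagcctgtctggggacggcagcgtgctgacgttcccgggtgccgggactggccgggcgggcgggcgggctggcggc
The Alcam window holds 1 such E-box, beginning 40 bases before the start, and the Pkp4 window shown holds 0. The window before the second Pkp4 start holds 1, beginning 47 bases before that start, so the motif does not separate these genes. The motif is in 17.2% of all 32851 promoter windows of this length, so its presence is common. The Tcf/Lef core CTTTGAT, sought on both strands, is in 0 of the 8 windows of the members and in 3.21% of all windows. A match describes letters only.

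Desmoglein 2, the desmosomal cadherin encoded by Dsg2, read lower in the expansion of every mouse on both of its bright probe sets. The brightest probe set (1439476_at) read 44.4, 294.7, 82.1 and 145.9 in expansions 1 to 4, and 288.8, 1793, 471 and 741 in polyclonal samples 1 to 4. Polyclonal signal was 6.50, 6.09, 5.74 and 5.08 times that of the expansion of the same mouse, and the mean paired difference on the log2(value + 5) scale was -2.48 ± 0.13 (SD, n = 4). The levels themselves differed far more between mice than the ratios did. The highest expansion value, in mouse 2, lay just above the lowest polyclonal value, in mouse 1, so the groups overlapped although the pairs did not. Expansion 1 was just under its background of 46.6, and the ratio there is at least 6.20 when background is used instead.

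The next Dsg2 probe set (1449740_s_at, whose suffix marks probes shared by several transcripts) read 61.4, 317.8, 107 and 109 in the expansions and 208, 2151, 517 and 522 in the polyclonal samples. It was above background on all 8 arrays, with a mean difference of -2.21 ± 0.43 (SD, n = 4). Over the 8 arrays the log2 signals of these probe sets correlated at r = 0.97, a description, since both interrogate the same RNA. Both had mouse 2 highest and mouse 1 lowest in each group. The remaining 4 Dsg2 probe sets did not share this pattern. The third in brightness (1460380_at) read 4.17 in expansion 1 and 86.8 in its partner, but 50.9 against 13.5 in mouse 2 and 99.1 against 48.4 in mouse 4, with r = 0.11 to the brightest. The other 3 were under background on most arrays, and one of them (1426153_a_at) on all of them, with signals between 1.89 and 14.7.

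Sort purity is given beside these values, and its part in them was not tested. Polyclonal sample 2, at 75% purity, had the highest Dsg2 signal, and polyclonal sample 3, at 66%, lay below polyclonal sample 4, at 97%. In mice 1 and 4 alone, whose polyclonal samples were both 97% pure, the mean difference was -2.44, and without mouse 4 it was -2.54. In sorted bulk RNA, fewer cells expressing a gene and less RNA per cell cannot be told apart.

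Fat1 encodes a giant atypical cadherin known from cell polarity and from control of growth through the Hippo pathway. Its only probe set (1433857_at) read 5.99, 24.0, 6.46 and 55.1 in expansions 1 to 4 and 96.4, 133, 107 and 318 in polyclonal samples 1 to 4. All polyclonal samples lay above all expansions, so the groups did not overlap, and the mean paired difference was -2.79 ± 0.53 (SD, n = 4). The polyclonal samples were above background in 4 of 4 mice and the expansions only in mouse 4. With background in place of the readings under it, the polyclonal signal was at least 2.07, 2.57 and 1.73 times that of the expansion in mice 1 to 3, and it was 5.77 times in mouse 4. The unbounded ratios of 16.1, 5.54 and 16.5 in mice 1 to 3 rest on readings under background. No further probe set was available to check the size.

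**Figure D1:**
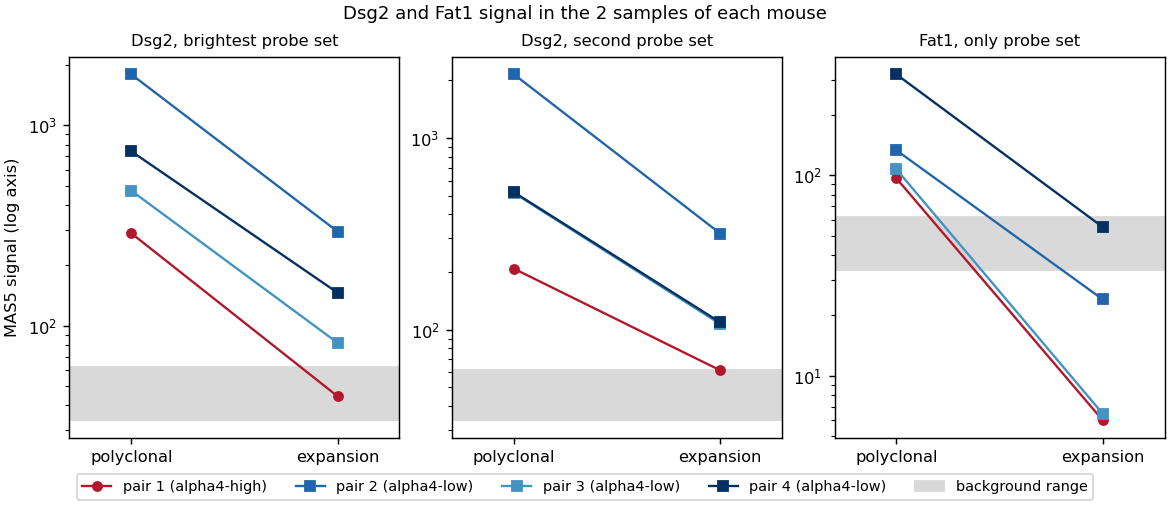
MAS5 signal (log axis) of both bright Dsg2 probe sets and the Fat1 probe set in the polyclonal sample and the expansion of each mouse, joined by a line; the grey band spans background from 33.7 to 61.9. All lines slope down, the Dsg2 lines nearly in parallel, and 3 of the 4 Fat1 expansion readings lie below the band.

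Among all member probe sets, 4 of the 18 tested were lower in the expansion of every mouse, against 6.05% of the 22518 probe sets tested. These were both bright Dsg2 probe sets, Fat1 and a dim Ctnna1 probe set. None was higher in every mouse (0 of 18), against 4.79% of all. Groups did not overlap for 1 of the 18, Fat1, against 1.35% of all in either direction. Because Dsg2 and Fat1 were picked by this difference, nothing is read from these shares. In the limma fit over all pairs 0% of all tested probe sets passed an adjusted p of 0.05, with 731 of 22518 at an unadjusted p under 0.05. In the 3 alpha4-low pairs 0.0533% of all passed. No member result is given for either fit, since both use pairs by which Dsg2 and Fat1 were picked. Of the 18 member probe sets 7 were lower in each alpha4-low expansion, against 15.0% of all, and 3 of these 7 are Alcam probe sets. Nothing is read from this share either.

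**Figure D2:**
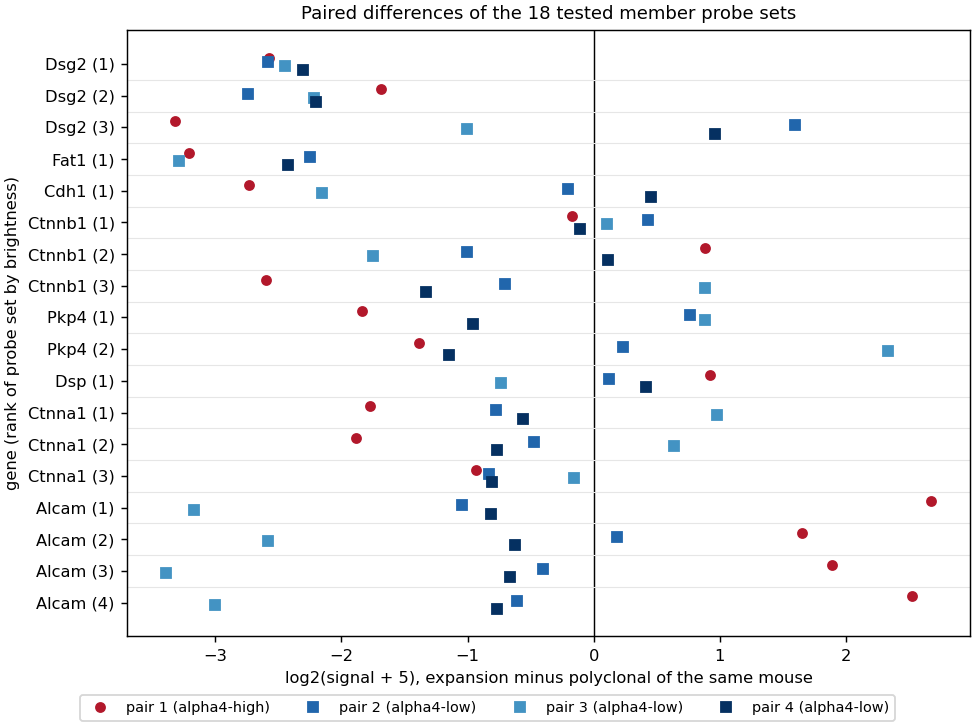
Difference in log2(signal + 5) between the expansion and the polyclonal sample of each mouse (horizontal axis) for the 18 tested member probe sets, ranked by brightness within each gene. The 4 mice cluster near -2.48 for the brightest Dsg2 probe set and spread on both sides of 0 for Pkp4, while Alcam has pair 1 on the right and pairs 3 and 4 on the left.

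E-cadherin, encoded by Cdh1 and measured by 1 probe set (1448261_at), varied from clone to clone. It read 77.6, 362, 161 and 409 in expansions 1 to 4 and 543, 418, 733 and 298 in polyclonal samples 1 to 4, above background on every array. Expansions 1 and 3 were 7.00-fold and 4.56-fold lower than their partners, expansion 2 was close to its partner, and expansion 4 was higher than its partner. The mean difference of -1.16 was smaller than its spread over mice (SD 1.52, n = 4). The polyclonal sample with the highest Cdh1 signal, sample 3, was also the least pure.

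The catenins that link E-cadherin to actin were measured at high signal. The brightest Ctnnb1 probe set (1420811_a_at), for beta-catenin, read 26444, 33810, 25067 and 29277 in the expansions and 29857, 25027, 23300 and 31481 in the polyclonal samples. Its mean difference was 0.06 ± 0.27 (SD, n = 4) and the groups overlapped almost fully. The dimmer Ctnnb1 probe sets had the same sign as the brightest in 0 of 4 mice (1450008_a_at) and 3 of 4 mice (1430533_a_at), with correlations of -0.25 and 0.09 to it over 8 arrays. Each was under background on at least 1 array, and neither read above 208.

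On both bright probe sets for alpha-catenin, encoded by Ctnna1, 3 of 4 expansions were lower than their partners and expansion 3 was higher. The brightest Ctnna1 probe set (1437807_x_at, whose suffix marks probes that may also bind other transcripts) read 1974, 3304, 14176 and 4936 in the expansions and 6744, 5662, 7212 and 7288 in the polyclonal samples. The next one (1448149_at) read 1379, 2921, 5679 and 2679 against 5104, 4052, 3655 and 4561. The polyclonal samples were alike, at 6726 ± 749 and 4343 ± 629 (SD, n = 4), while the expansions ranged over more than the polyclonal samples on both probe sets. The correlation of these probe sets over the arrays was 0.91. The mean differences of -0.53 ± 1.13 and -0.62 ± 1.04 (SD, n = 4) were within the spread over mice. A dim probe set (1436631_at) was lower in 4 of 4 expansions, at -0.68 ± 0.36 (SD, n = 4), and the dimmest (1437275_at), not tested, was higher in 3 of 4.

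Pkp4 encodes plakophilin 4, an armadillo-repeat protein of adherens junctions and desmosomes. The brighter probe set (1452209_at) read 3169, 16378, 10424 and 5146 in expansions 1 to 4 and 11321, 9628, 5650 and 9982 in the polyclonal samples. Expansions 1 and 4 lay below their partners and expansions 2 and 3 above theirs, and the dimmer probe set had the same direction in 4 of 4 mice (r = 0.88). The mean differences were -0.29 ± 1.33 and 0.01 ± 1.71 (SD, n = 4). As for alpha-catenin, the lowest of all 8 arrays on the brighter probe set was expansion 1.

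Of the intracellular desmosomal plaque genes, Jup and Dsp were dim, unlike Pkp4. Jup, for plakoglobin, read between 3.38 and 30.0 and was above background on 0 of 8 arrays. The 3 Dsp probe sets, for desmoplakin, read between 2.87 and 95.3, and the brightest of them (1427610_at) was above background in 1 expansion and 3 polyclonal samples. So was the next (1435493_at), at 95.3, 71.8 and 80.7 in polyclonal samples 2 to 4 against backgrounds of 43.6, 34.7 and 40.8. The dimmest (1435494_s_at) was above background in 2 expansions and 0 polyclonal samples. No fold is given for either gene. On its bright probe sets Dsg2 was thus measured well above background in polyclonal cells. There the plakoglobin probe set was under background. Desmoplakin had a weak signal in 3 of 4 samples on its brighter probe sets and in 0 on the dimmest.

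**Figure D3:**
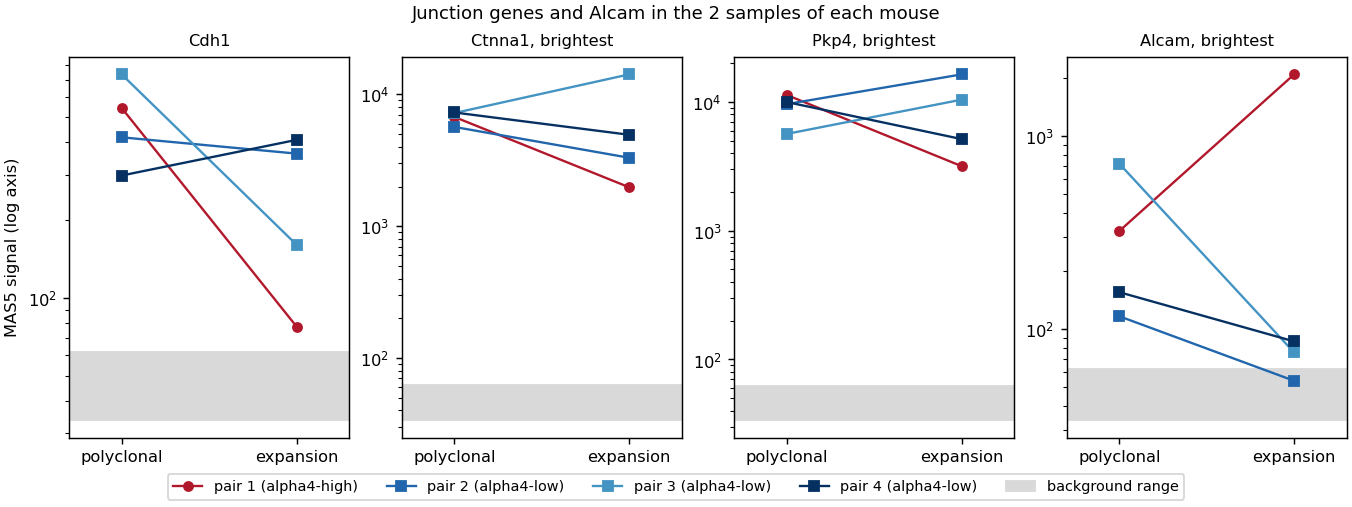
MAS5 signal (log axis) of Cdh1 and of the brightest Ctnna1, Pkp4 and Alcam probe sets in the polyclonal sample and the expansion of each mouse; the grey band is the background range. Expansion 1 is the lowest of the 4 expansions for Cdh1, Ctnna1 and Pkp4 and the highest for Alcam, at 2086.

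ALCAM is an immunoglobulin-family adhesion molecule that binds CD6 and is induced on activated lymphocytes. The brightest Alcam probe set (1437467_at) had a signal of 2086 in expansion 1 and 322 in its polyclonal partner, a ratio of 6.48. In mice 2 to 4 it read 54.0, 75.7 and 86.3 in the expansions against 117, 720 and 155 in the partners. The alpha4-high expansion was the highest of all 8 arrays and the alpha4-low expansions were the 3 lowest. The next 3 probe sets read 827, 907 and 541 in expansion 1 against 260, 241 and 89.9 in its partner. Their correlations with the brightest were 0.92, 0.97 and 0.90, and in the alpha4-low pairs only 1 of their 9 differences was positive, at 0.18 in pair 2. Expansion 3 was under its background of 61.9 on all 3, and expansion 4 was under background on 1437466_at. With background in place of the reading, the polyclonal signal in mouse 3 was at least 4.65, 6.07 and 4.11 times that of the expansion. The fifth probe set (1443086_at) was near background, between 3.54 and 72.8.

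Whether the paired difference itself differed between the alpha4-low and the alpha4-high expansions was tested for the members. The alpha4-high arm is 1 pair, so the standard errors come from the spread of the 3 alpha4-low pairs and limma's prior, and the lone pair is assumed to vary like them. None of the 18 passed an adjusted p of 0.05 in limma, against 0.0533% of all tested probe sets. At an unadjusted p under 0.05 there were 6 of 18, against 6.57% of all, and 4 of these 6 were Alcam probe sets, which share a gene. The others were the brighter Pkp4 probe set and the third Dsg2 probe set (1460380_at), at 3.84 (SE 1.42, limma adjusted p = 0.575), which was under background in expansion 1. The largest was the brightest Alcam probe set, whose alpha4-low minus alpha4-high difference was -4.35 (SE 1.01, limma adjusted p = 0.178). The other 3, each with expansion 3 under background, gave -3.98, -3.38 and -2.66. Its call depended on single mice: without mouse 3 the difference was -3.60 (limma adjusted p = 0.0171), and without mouse 4 it was -4.78 (limma adjusted p = 0.00253), each with 2 alpha4-low pairs. With sort purity as a covariate it was -2.69 (limma adjusted p = 0.9998).

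The other members did not pass in this contrast either. Pkp4 had 2.07 (SE 0.84, limma adjusted p = 0.649), Cdh1 2.09 (SE 1.01, limma adjusted p = 0.791) and Ctnna1 1.65 (SE 0.85, limma adjusted p = 0.833). The bright Dsg2 probe sets had 0.12 (SE 0.80) and -0.71 (SE 0.81), and Fat1 had 0.55 (SE 1.25). Choosing these genes by their all-pairs difference favours pairs that agree, so nothing is read from these values.

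Other genes of the same junctions and pathways were read from 8 lists that hold no member, 105 genes in all, of which 97 were on the platform and 52 were bright enough to test. In limma over all pairs 0 of the 52 passed (2 at an unadjusted p under 0.05, beside 731 of all 22518 tested probe sets). Of the 52, 16 were higher and 36 lower, beside 12136 lower of all 22518. Their median difference was -0.13 beside -0.04 for all tested probe sets. In the alpha4-low pairs 0 passed (4 at an unadjusted p under 0.05 in limma, beside 1150 of all 22518), with a median of -0.16 beside -0.07 for all. In the difference between subclasses 1 passed, Klrg1 (11 at an unadjusted p under 0.05), and the median was -0.13 beside -0.10 for all.

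Klrg1, the inhibitory receptor that binds E-cadherin, had a signal of 3668 in the alpha4-high expansion and 359 in the polyclonal cells of mouse 1, and 192, 142 and 152 in expansions 2 to 4 against 679, 1421 and 1168. The alpha4-high expansion lay above all other arrays and the alpha4-low expansions below all polyclonal samples. The difference between subclasses was -5.99 (SE 0.88, limma adjusted p = 0.0472), again with 1 alpha4-high pair, and was past the threshold in 7 of 11 alternative settings. Within the alpha4-low pairs the difference was -2.66 (limma adjusted p = 0.0615). It passed in 6 of 12 alternatives, which include each omission of 1 mouse (limma adjusted p from 0.00162 to 0.0472), and not in the others, up to a limma adjusted p of 0.675 with sort purity as a covariate. In the same clone, expansion 1, Cdh1 was the lowest of all 8 arrays. The other E-cadherin receptor genes, Itgae and Itgb7, and the ALCAM receptor gene Cd6 had all-pairs differences of -0.23, -0.81 and -0.76, and none passed. For Itgb7 the alpha4-low difference was -0.92 (limma adjusted p = 0.970), and it passed in 1 of 12 alternatives, without mouse 3 (-1.76, limma adjusted p = 0.0416).

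The remaining desmosomal genes were mostly dim, with 11 of 14 on the platform and 4 tested. None passed in any comparison (0 of 4). All 4 had a negative difference between subclasses, beside 12232 of all 22518 tested probe sets. For Pkp3, Pkp2 and Dsc1 that difference includes pair 1 readings under background. Perp, a tetraspan membrane protein of desmosomes that p53 induces, had a signal of 4002 in expansion 1 and 589 in its polyclonal partner, and 72.7, 51.4 and 116 in expansions 2 to 4 against 532, 1123 and 194 (subclass difference -5.37, SE 1.15, limma adjusted p = 0.134). Perp in expansion 3 was under its background of 61.9, so its alpha4-low and subclass differences include a reading under background. With background in place of that reading, the Perp signal of polyclonal sample 3 was at least 18.1 times that of expansion 3. Pkp3, for plakophilin 3, had a signal of 415 in expansion 1 and of 16.9, under background, in the polyclonal cells of that mouse, and 49.9, 188 and 35.4 against 349, 410 and 36.2 in the other mice. With background in place of the reading under it, Pkp3 in expansion 1 was at least 8.61-fold higher than in its partner, and no subclass difference is given for it. Perp therefore shared with Alcam a reading in the alpha4-high clone above all other arrays. Pkp3 in that clone was close to polyclonal sample 3, at 410. The Perp subclass difference passed in 3 of 11 alternatives, among them the omission of mouse 3 (limma adjusted p = 0.000156) or mouse 4 (limma adjusted p = 1.73e-05), and was -2.56 (limma adjusted p = 0.9998) with sort purity as a covariate. In the alpha4-low pairs Perp had -2.61 (limma adjusted p = 0.289), -3.56 without mouse 4 (limma adjusted p = 1.89e-05) and -0.54 with sort purity as a covariate. Pkp2 and Dsc1 had all-pairs differences of -0.37 and -0.44, and Dsc1 was above background on only 4 of 8 arrays.

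Of 20 adherens junction and cadherin genes, 6 were tested and 0 passed in any comparison. Over all pairs 4 were lower, beside 12136 of all 22518 tested probe sets. Afdn, for the actin-binding junction protein afadin, had a signal of 46.8 in expansion 1 and 1566 in its polyclonal partner, and 2963, 326 and 471 against 1157, 709 and 695 in mice 2 to 4. Afdn was barely above the background of 46.6 in expansion 1, the only alpha4-high expansion. Its subclass difference was 4.82 (limma adjusted p = 0.112), and it passed in 3 of 11 alternatives, among them without mouse 3 or mouse 4 (limma adjusted p = 8.29e-07 and 0.00245). The P-cadherin gene Cdh3 was near background in the polyclonal samples, and Cdh17 and Arvcf were near background on several arrays. Their all-pairs differences were 1.33, -0.47 and -0.37.

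Tjp1, for the tight junction scaffold ZO-1, had the largest all-pairs difference of the lists. It read 173, 328, 79.8 and 4460 in expansions 1 to 4 and 6776, 2431, 1554 and 3696 in the polyclonal samples. Expansions 1 to 3 lay below every polyclonal sample, whereas expansion 4 read above its partner. The all-pairs difference was -3.01 and did not pass (limma adjusted p = 0.9998). The alpha4-low difference was -2.27 (limma adjusted p = 0.742), with -3.54 without mouse 4 (limma adjusted p = 5.45e-05), -1.30 without mouse 3 and 0.38 with sort purity as a covariate. The subclass difference was 2.98 (limma adjusted p = 0.730), and it passed without mouse 3 (3.95, limma adjusted p = 0.000392) and with sort purity as a covariate (6.56, limma adjusted p = 0.0103). With only 2 tight junction genes tested of 9, the other being Tjp3 at 0.02, no count is informative.

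In the list of beta-catenin regulators and targets 11 of 14 genes were tested and 0 passed in any comparison. Over all pairs 9 of the 11 were lower, beside 12136 of all 22518 tested probe sets. The median was -0.15 beside -0.04 for all. Lef1, a transcription factor partner of beta-catenin, read 238, 521, 326 and 808 in the expansions and 1642, 691, 616 and 824 in the polyclonal samples, lower in 4 of 4 mice at -1.02. The proto-oncogene Myc was lower in 4 of 4 mice at -0.46, and Bcl9 and Axin1 had differences of -0.37 and -0.25. Of 14 Hippo pathway genes 8 were tested and 0 passed, with a median of -0.02; the kinases Lats2 and Stk4 had 0.38 and 0.13, the adaptor Sav1 0.14, and Nf2 -0.15. The other tested probe sets of Stk4 and Bcl9 had the opposite sign, and so did 2 of the 3 others of Lats2. The dimmest Stk4 probe set was at -0.91 and the other tested Nf2 probe set at -0.80, each lower in 4 of 4 mice. Both mouse 1 readings of that Nf2 probe set were under background. Of 11 Fat, Dachsous and planar polarity genes 3 were tested and 0 passed: Vangl2 at 1.08, higher in 4 of 4 mice, Vangl1 at -0.30 and Celsr1 at -0.26. Vangl2 was near background in the polyclonal samples and under it in sample 3, at 19.1. Vangl1 was under background on several arrays. Immunoglobulin-family adhesion genes had 14 of 19 tested and 0 passed, with a median of -0.02. The activating receptor gene Cd226 had a signal of 32.3 in expansion 1, under background, and 274 in its polyclonal partner, while in mice 2 to 4 the expansions read 250, 174 and 145 against 246, 209 and 158. Crtam, Cadm1 and Jam2 had all-pairs differences of -0.41, 0.45 and 0.41, and the other tested Cadm1 probe set had the opposite sign.

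**Figure D4:**
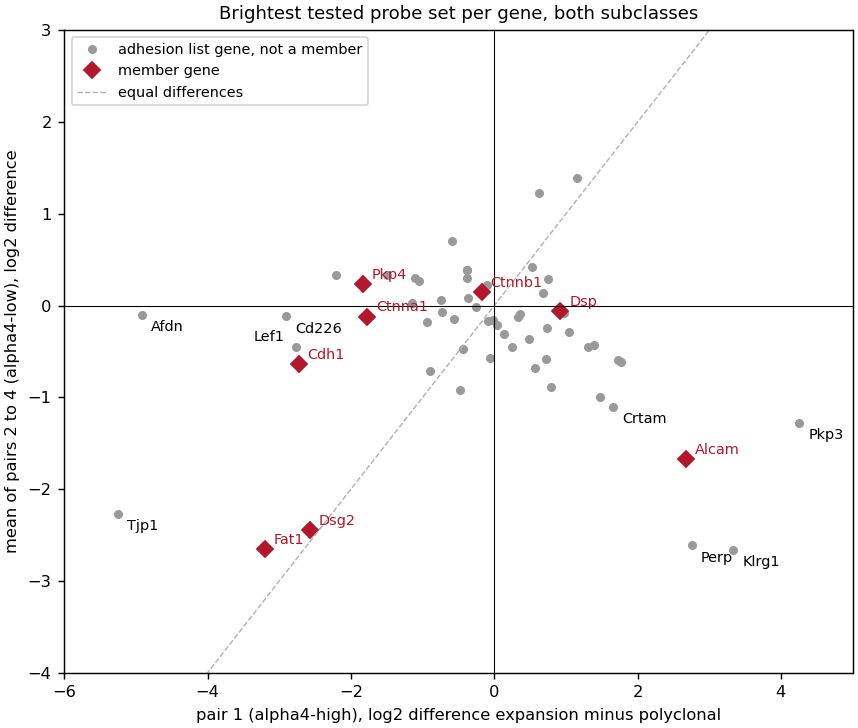
Log2 difference between expansion and polyclonal sample in pair 1 (alpha4-high, horizontal axis) against the mean of pairs 2 to 4 (alpha4-low, vertical axis), 1 point per gene on its brightest tested probe set; red diamonds are members and grey points the 52 list genes. Dsg2 and Fat1 lie near the line of equal differences at the lower left, and Alcam lies at the lower right with Perp, Pkp3 and Klrg1. Among the labelled genes, pair 1 of Dsg2, Fat1, Dsp, Pkp3 and Cd226 each includes a reading under background, as it does for some unlabelled genes.

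Markers of other cells were read because desmosomal genes are best known outside the immune system. The summed signal of 7 epithelial markers was 273 to 395 in the expansions and 165 to 405 in the polyclonal samples, 0 of the 7 were above background on all arrays, and Cldn4 was under it on all 8. The summed signal of 7 stromal and endothelial markers was 166 to 482 in the polyclonal samples and 155 to 214 in expansions 1, 3 and 4. It was 2538 in expansion 2, of which Col1a2 alone gave 2346, and polyclonal sample 2 had the highest of the polyclonal sums. Mouse 2 thus had the highest Dsg2 and the highest stromal sum in each group. The sum in expansion 2 exceeded that in its partner, the reverse of Dsg2. Dendritic cell markers, of which 5 of 6 were measured, summed to 260 to 1050 in the expansions and 206 to 780 in the polyclonal samples, with Itgax, which CD8 T cells can also express, the brightest of them on every array. B cell markers summed to 592 to 1244 and 536 to 1157, myeloid markers to 1467 to 2686 and 609 to 1804, CD4 T cell markers to 277 to 345 and 181 to 419, and erythroid markers to 14.8 to 78.0 and 17.1 to 95.6. NK cell markers, partly shared with CD8 memory cells, summed to 8870 to 32485 in the expansions and 18303 to 47663 in the polyclonal samples, with Ncr1 under background on all arrays. Of the 47 marker genes measured, 4 were lower in every expansion than in its partner (Cd79a, Kdr, Klra8 and Cd4) and 3 were higher (Itgam, Krt18 and Krt19), named after their values were seen. Of the 22518 probe sets tested, 6.05% were lower in every pair and 4.79% higher, while the markers were not filtered by brightness. Nothing is read from these counts. Cd4 was above background in 0 of 4 expansions and 2 of 4 polyclonal samples. Itgam and Krt19 were above it in 1 of 4 expansions, Krt18 in 3 of 4, and all 3 in 0 of 4 polyclonal samples. The B cell gene Cd79a read 39.5, 74.8, 60.4 and 24.4 in the expansions and 57.5, 148, 93.8 and 56.2 in the polyclonal samples. The endothelial gene Kdr read 10.3, 30.5, 23.6 and 71.1 in the expansions and 66.8, 117, 89.7 and 83.7 in the polyclonal samples. Both were above background in 4 of 4 polyclonal samples and 1 of 4 expansions. Other genes of their lists did not share these counts. Ebf1 was above background in 4 of 4 expansions and 2 of 4 polyclonal samples. Ms4a1 and Cd79b were above background in 4 of 4 of each. Cd79b nevertheless read lower in the expansion than in its partner in mice 2 to 4, and higher in mouse 1. Col1a1 was above background in 2 of 4 expansions and 1 of 4 polyclonal samples. The part of other cells in the Dsg2 and Fat1 values was not tested.

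Genes whose log2 signal over the 8 arrays was most like the brightest Dsg2 probe set, by Pearson correlation, were Nsun2 (r = 0.97), Snx9 (0.96), Clk2 (0.96), Mdn1 (0.96) and Ddhd2 (0.95). Nsun2, an RNA methyltransferase gene, read 1897, 2386, 1902 and 2227 in the expansions and 2339, 3158, 2465 and 2480 in the polyclonal samples, the same order of mice over a much smaller range. For Fat1 the most alike were 4930523C07Rik (0.95), Foxo1 (0.95), Bbs2 (0.93), Birc3 (0.93) and Senp2 (0.91). Foxo1, a transcription factor gene of T cell quiescence and homing, read 782, 1381, 828 and 1593 in the expansions and 1940, 1680, 1574 and 2211 in the polyclonal samples. Dsg2 and Fat1 correlated with each other at 0.85. These values describe 8 arrays that share mice and groups.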

How the data were processed

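Signals came from 8 Affymetrix Mouse Genome 430 2.0 arrays. The deposited table holds a linear intensity per probe set, made by the authors with MAS5 per the submitters' processing notes; the trimmed mean is the same on every array, so nothing was rescaled. Per the labels' protocols the RNA was amplified in 2 rounds before biotin labelling. No detection calls came with the table.

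Here values were taken as log2(value + 5). Of 45101 probe sets, 64 controls and those at or under the median mean log2 value were left out, and 22518 were tested. The linear models (lmFit, eBayes, variance trend over intensity) used limma 3.58.1 under R 4.3.3. Mouse entered as a blocking factor, since by the labels both samples of a pair came from 1 animal; deviations of partner arrays from their group means correlated at 0.374, 0.0771, 0.214 and 0.338. One model had 1 expansion coefficient and another a coefficient per integrin subclass. Tests were two-sided, adjusted by Benjamini-Hochberg over all tested probe sets, with a threshold of 0.05. The fits were checked on simulated data.

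Background on each array was taken, after the data were seen, as the 95th percentile over 27 bacterial control probe sets, taken as unspiked because nearly all were dim. Genes were named through the platform annotation, whose 34958 single-gene probe sets were matched by Entrez identifier to RefSeq (34754 matched, 0 symbols changed). The members, gene lists and marker lists were chosen with earlier results of these data known. Named are all members, up to 4 genes per list with the largest all-pairs difference on their brightest tested probe set, list genes past a threshold, and the 5 genes most like Dsg2 and Fat1. Alternatives covered pseudocount, filter, scaling, variance trend, block, sort purity as a covariate and omission of pairs. Plots used matplotlib 3.10.9.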

Additional observations from a re-analysis of the deposited data

Results flagged for a closer look

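On 3 occasions among 54 sets of 4 values examined over the 18 tested member probe sets, 1 value stood far from the other 3 by Dixon's criterion, whose critical ratio for 4 values is 0.829; chance gives about 1 in 20. For the dim Ctnna1 probe set 1436631_at the polyclonal sample of mouse 1, at 46.1, stood apart from 217, 221 and 213 (ratio 0.974), and so did the pair difference of mouse 3 (ratio 0.834). For the brightest Alcam probe set expansion 1, at 2086, stood apart from the other expansions (ratio 0.877).

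For 3 Alcam probe sets the pair difference was positive in the alpha4-high mouse and negative in all 3 alpha4-low mice. The difference between subclasses was -4.35, -3.38 and -3.98 for these, and none of them passed in limma (adjusted p = 0.178, 0.514 and 0.383).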

How the results depend on the processing

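For Dsg2 the all-pairs difference stayed between -2.54 and -2.31 over 13 alternatives, the latter with a pseudocount of 20, and that of Fat1 was negative in 12 of 12. The number of member probe sets lower in every pair used, 4 over all pairs, was 4 to 7 when 1 mouse was left out and 10 without mice 2 and 3, a count added after the data were seen. With fewer pairs, fewer have to agree. The share of all tested probe sets rose likewise, from 6.05% over all pairs to 15.0% without mouse 1, so nothing is read from this rise. Calls across all probe sets moved much more. Over all pairs 0 passed, except 20 without mouse 1 (range 0 to 20 when a mouse was left out). In the alpha4-low pairs 12 passed, against 22 with the filter at the 75th percentile, 6 after quantile normalization, 0 without the intensity trend, 0 without the replicate block, and 18 to 148 when a mouse was left out. For the difference between subclasses 12 passed, against 0 with a pseudocount of 1, 0 after quantile normalization, 0 without the trend, 0 without the block, 25 with no filter, 63 with the filter at the 75th percentile, and 64 to 266 when a mouse was left out. Calls among list genes over the 3 comparisons, 1 in all, were 0 with a pseudocount of 1, after quantile normalization, without the trend, without the block and without mice 2 and 3, 2 with no filter or with sort purity as a covariate, 4 with the filter at the 75th percentile, and 1 to 7 when a mouse was left out. Fits on 3 mice have 1 residual degree of freedom in the subclass model; the cause of their higher counts was not tested. Without mice 2 and 3 the subclass model has none, and without mouse 1 no alpha4-high pair is left, so neither gives a value. Dim signal limits Fat1, Dsp and Jup.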
